A study of Mus musculus with 36 samples.

Results

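Imprinted genes were followed across liver H3K9me3 profiles of mouse offspring as 41 genes named by their symbols in the tables, each taken with every bin assigned to it, so that control regions near the genes were included. These genes held 1979 of the 786789 bins listed in 6 comparisons, and 40 of the 41 genes held at least 1 bin. H3K9me3, trimethylation of lysine 9 of histone H3, was measured by ChIP-seq, the sequencing of DNA precipitated with an antibody to the mark. The 32 libraries fell into 8 groups of 4: offspring of control dams and offspring of dams with maternal obesity (MO), female or male, at 3 or 8 weeks of age, with 4 input libraries beside them. All offspring carried 1 or 2 floxed Reg3g alleles on a C57BL/6J background. The paper describes them as floxed littermate controls from an in-house colony, with wild-type C57BL/6J sires. MO dams ate a Western-style diet and control dams ate chow, from before mating through lactation. The 3-week mice were taken before weaning, and the 8-week mice had eaten chow since weaning. The 8-week mice were additional cohorts, so age and cohort cannot be told apart. Diet was given to the dams, and the paper does not give the number of litters per group. The colony shares 1 strain background, so the maternal and paternal copies of a region cannot be told apart, and each value is the sum of both. Whole liver was used, so fewer cells of a type and less mark per cell cannot be told apart either.

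Imprinted genes are expressed from 1 parental copy. Their domains are governed by control regions that are methylated on the copy from one parent only, and this DNA methylation is kept through development. The zinc finger protein ZFP57 binds the methylated letters TGCCGC in such regions and recruits TRIM28 with the methyltransferase SETDB1, which places H3K9me3 on the methylated copy. Control regions are therefore places where this repressive mark is expected on 1 allele in ordinary tissue. Igf2, a fetal growth factor gene of this class, is switched off in mouse liver after birth.

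The sequences below come from bins that carried the results, read from the GRCm38 (mm10) reference on the plus strand, 5′ to 3′. Each stretch has 120 bases and overlaps no annotated UTR, and capitals mark TGCCGC or its reverse complement GCGGCA. The first 8 are from maternally methylated control regions whose strongest bin rose with age in males: Peg3, Mest, Airn, Plagl1, Nnat and Mcts2 are shown because their bins hold several copies of the motif, and Peg10 and Peg13 because their bins rose as well and hold none. Of the other regions called in males, those of Gnas and its antisense transcript Nespas, Grb10 and Impact are not printed. The stretch of Igf2 belongs to the member bin with the highest signal in males, and the distal stretch assigned to Grb10 belongs to the bin with the largest fall.
Peg3, chr7:6730062-6730181: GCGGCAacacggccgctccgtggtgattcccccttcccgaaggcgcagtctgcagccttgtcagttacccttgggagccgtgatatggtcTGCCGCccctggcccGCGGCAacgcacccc
Mest, chr6:30738336-30738455: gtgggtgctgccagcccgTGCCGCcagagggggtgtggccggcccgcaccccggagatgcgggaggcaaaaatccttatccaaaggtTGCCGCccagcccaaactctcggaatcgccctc
Airn, chr17:12742311-12742430: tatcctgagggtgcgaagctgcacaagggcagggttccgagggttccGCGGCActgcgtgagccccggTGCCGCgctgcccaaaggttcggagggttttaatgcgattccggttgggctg
Plagl1, chr10:13091025-13091144: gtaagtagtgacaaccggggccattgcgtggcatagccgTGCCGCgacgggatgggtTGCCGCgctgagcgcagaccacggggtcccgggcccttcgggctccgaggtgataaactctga
Nnat, chr2:157560309-157560428: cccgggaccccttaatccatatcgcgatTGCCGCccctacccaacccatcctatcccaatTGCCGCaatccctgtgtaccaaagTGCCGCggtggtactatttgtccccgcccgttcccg
Mcts2, chr2:152686829-152686948: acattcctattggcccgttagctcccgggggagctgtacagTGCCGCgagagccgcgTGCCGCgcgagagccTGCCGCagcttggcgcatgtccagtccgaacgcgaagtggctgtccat
Peg10, chr6:4749253-4749372: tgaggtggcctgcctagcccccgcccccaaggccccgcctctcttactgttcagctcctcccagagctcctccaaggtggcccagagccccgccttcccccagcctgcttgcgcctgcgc
Peg13, chr15:72809366-72809485: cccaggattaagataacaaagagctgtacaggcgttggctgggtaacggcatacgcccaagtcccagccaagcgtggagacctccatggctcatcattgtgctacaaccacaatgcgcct
Igf2, chr7:142669992-142670111: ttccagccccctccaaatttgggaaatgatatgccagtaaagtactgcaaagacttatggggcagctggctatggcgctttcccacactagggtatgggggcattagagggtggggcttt
Grb10, distal, chr11:12202905-12203024: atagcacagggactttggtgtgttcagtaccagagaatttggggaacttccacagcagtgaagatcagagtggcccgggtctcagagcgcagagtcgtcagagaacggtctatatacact
The Peg3, Nnat and Mcts2 stretches held 3 copies of the motif and the Mest, Airn and Plagl1 stretches held 2. The stretches of Peg10, Peg13, Igf2 and the distal Grb10 bin held none, which says only that these letters are not in the windows shown.

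The tables gave comparisons of groups and an average signal (log2 CPM, reads scaled to a common library size) over the libraries of a comparison, with no value per library. The spread between the 4 animals of a group therefore enters through the deposited p-value and FDR of edgeR's exact test, and the error given with each change is an approximate standard error (SE) implied by the change and its p. Depth per library was unknown from the tables. Peaks had been divided into bins of 500 bases, and each listed bin is 1 bin of its peak. Changes are log2 values, positive where the mark was higher at 8 weeks or with MO.

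The first comparison asked how the mark at these genes differed between 8 and 3 weeks in control offspring. In females, 11 of 304 bins passed an FDR of 0.05, beside 2.72% of all 120683 bins, and all 11 were higher at 8 weeks, beside 1.49% of all bins called higher. In males, 33 of 373 bins passed, beside 4.41% of all 148133 bins. Of these, 23 were higher, beside 2.42% of all bins, and 10 were lower, beside 1.99%. The calls fell in 11 genes in females and 22 genes in males. Cdkn1c, Dio3, Grb10, Igf2, Impact, Mest, Mirg, Peg3 and Snrpn had a bin called higher in each sex, though mostly not the same bin. The median change over all bins of these genes was close to 0, at -0.0045 in females and -0.05 in males, beside -0.03 and -0.05 over all bins.

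The calls concentrated in promoters, defined as within 3 kb of a transcription start. In males, 16 of 65 promoter bins of imprinted genes were called higher and 3 lower, which is 24.6% and 4.62%, beside 2.65% and 1.6% of all 30097 promoter bins. In females, 7 of 56 promoter bins were called higher and 0 lower, which is 12.5%, beside 1.89% called higher and 1.01% called lower among all 25490 promoter bins. The median change of the promoter bins was 0.59 in males and 0.35 in females, beside 0.12 and 0.05 over all promoter bins. With the trend of all bins with GC content and signal taken off, these medians were 0.24 in males and 0.05 in females, beside -0.0061 and -0.04. In gene bodies 3 of 149 bins were called higher and 2 lower in males, which is 2.01% and 1.34%, beside 2.09% and 2.22% of all gene body bins. In females 2 of 120 gene body bins were called higher, which is 1.67%, beside 1.05%. In distal intergenic bins 4 of 159 were called higher and 5 lower in males, which is 2.52% and 3.14%, beside 2.66% and 1.94% of all distal bins, and 2 of 128 were called higher in females, which is 1.56%, beside 1.73%. No gene body or distal member bin was called lower in females, beside 1.46% and 1.11% of all bins of these classes.

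**Figure D1:**
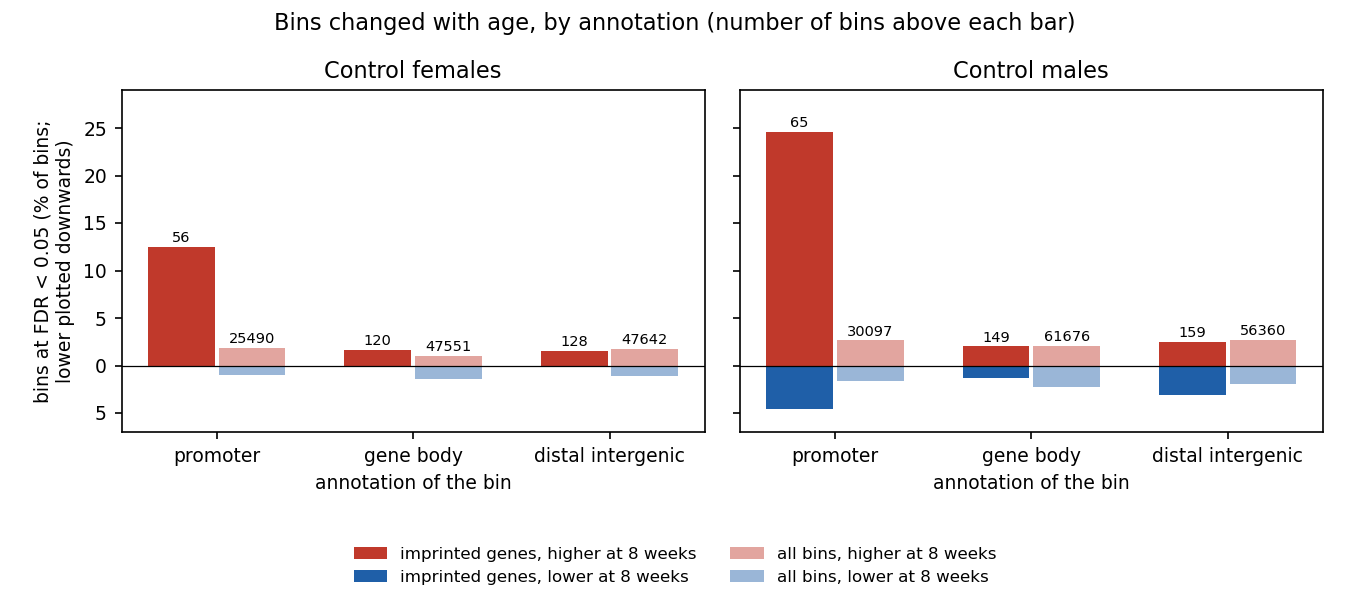
Share of bins with FDR under 0.05 in control females (left) and control males (right), by annotation, for imprinted genes and for all bins of the table; bars above 0 are bins higher at 8 weeks and bars below 0 are bins lower at 8 weeks, with the number of bins printed above each bar. Promoter bins of imprinted genes stand out at 12.5% in females and 24.6% in males.

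Control regions were examined through windows around the transcript starts of 16 genes with maternally methylated regions, and through spans upstream of H19, Meg3 and Rasgrf1, where the paternal copy is methylated. Snrpn had no bin of its own symbol in its window, so 18 regions were covered in each comparison. The strongest bin of each region, the one with the highest average signal, was followed. Every annotated start had its own window or span, such as 9 starts for Grb10 and 11 for Plagl1. The strongest bin can therefore lie at a start away from the control region. At Inpp5f the male bin was chr7:128672020-128672496 and the female bin chr7:128687933-128688433. In males, the strongest bin was higher at 8 weeks in all 18 regions and 12 were called, with a median change of 0.99. In females, 13 of 18 were higher and 5 were called, with a median change of 0.62. Among all bins above the 95th percentile of signal, 23.7% were called higher in males and 17.1% in females, with median changes of 0.60 and 0.49. Signal was high at these sites: 16 of 18 strongest bins in males and 8 of 18 in females lay above the 95th percentile of their table, a position that follows in part from choosing the strongest bin. Over all bins of the windows the median change was 0.54 in males (46 bins) and 0.06 in females (42 bins). Among promoter bins of these genes outside the windows, 4 of 30 were called higher and 2 lower in males, with a median of 0.32. In females 2 of 28 were called higher and 0 lower, with a median of -0.07. The shares of all promoter bins are given above.

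Among maternally methylated regions, Impact, which codes for a regulator of translation, had the largest male change. Its bin at chr18:12973018-12973518 rose by 1.57 (approximate SE 0.27, FDR 1.3e-05), and the female bin nearby at chr18:12974058-12974558 rose by 0.90 (SE 0.25, FDR 0.0247). Another male bin upstream of the Impact start (chr18:12968938-12969420) fell by 1.28 (FDR 0.0419), so the promoter of this gene held calls in both directions. At Mest, which codes for a hydrolase-like protein, overlapping bins rose in both sexes, by 1.27 in males (SE 0.29, FDR 0.00167) and by 1.19 in females (SE 0.34, FDR 0.0281). The Mest bins hold 3 copies of TGCCGC each, and the stretch printed above lies in the male bin.

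Grb10, which codes for an adaptor that restrains growth factor signalling, rose by 1.22 in males (chr11:12025922-12026422, SE 0.26, FDR 0.000612) and by 1.05 in females in a bin that overlaps its edge (SE 0.30, FDR 0.0255). Peg3, a zinc finger gene, rose at its promoter by 0.94 in males (chr7:6729956-6730456, SE 0.28, FDR 0.0299) and by 1.04 in females (chr7:6729362-6729862, SE 0.28, FDR 0.0185). Both Peg3 bins hold 3 motif copies. In males the bin in the 3′ UTR of Peg3, 12222 bases from the start, rose by 1.64 (FDR 0.000534), the largest rise of any member bin. The female table had 1 bin for Peg3, so this site was not compared between the sexes.

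The Gnas domain encodes the stimulatory G protein alpha subunit and several alternative products. A bin in the window of its antisense transcript Nespas rose by 1.25 in males (chr2:174299015-174299515, SE 0.27, FDR 0.00104), and the overlapping female bin had a change of 0.80 (SE 0.26, FDR 0.0665). The bin at a downstream Gnas start rose by 1.00 in males (chr2:174327288-174327788, FDR 0.0241), and its female counterpart had a change of 0.77 (FDR 0.138). No bin carried the symbol Nespas in any comparison. The noncoding RNA Peg13 rose by 1.36 in males (chr15:72809176-72809676, SE 0.30, FDR 0.00128), and the female bin beside it had a change of 0.51 (FDR 0.320).

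Of the remaining calls at maternally methylated regions, that of Inpp5f was in females and the others were in males. Mcts2, a retrogene inside H13, rose by 1.15 (chr2:152686680-152687180, FDR 0.00979). Airn, the noncoding RNA that silences Igf2r in cis, rose by 1.01 (chr17:12742101-12742601, FDR 0.0276). Peg10, a retrotransposon-derived gene, rose by 0.99 in the control-region window (FDR 0.0464) and by 1.27 in a bin in its 5′ UTR (FDR 0.0269). Plagl1, a zinc finger regulator of growth, rose by 0.97 (chr10:13090776-13091276, FDR 0.0277), and Nnat, a gene of neuronal membrane proteins, rose by 0.96 (chr2:157560026-157560526, FDR 0.0351). The female changes of the strongest bins were 0.39 at Mcts2, 0.72 at Airn, 0.72 at Peg10, 0.37 at Plagl1 and -1.06 at Nnat, none of them called. Of these, the Peg10 and Plagl1 bins overlap the male ones and the others do not. The female Nnat bin lies elsewhere in the gene and had a low signal, at the 25.0th percentile. The male bin that the female Mcts2 bin does overlap had a change of -0.18. Inpp5f, a gene of a phosphoinositide phosphatase, had the largest female rise of any member bin, 1.39 (chr7:128687933-128688433, SE 0.32, FDR 0.00375), with 5 motif copies. The male bin beside it, which was not the strongest of its window, had a change of 1.20 (FDR 0.0654).

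The regions without a call included all 3 that are methylated on the paternal copy. H19, a noncoding RNA expressed from the maternal copy, had a male change of 1.05 at its promoter (chr7:142577978-142578478, FDR 0.0962) and a female change of -1.12 at an upstream bin (chr7:142580992-142581492, FDR 0.235). The spans upstream of 11 annotated starts of Meg3, the noncoding RNA of the Dlk1-Dio3 domain, had a male change of 0.93 (chr12:109528035-109528535, FDR 0.0847, 5 motif copies). The female change was -0.14 at another bin (chr12:109532516-109533016, FDR 0.968). That bin lies nearer the Meg3 start called in males (chr12:109540601-109541101), so it need not measure the distal region. The Rasgrf1 span had changes of 0.55 in males and, at a bin beside it, 0.52 in females (FDR 0.429 and 0.477). Kcnq1ot1, the noncoding RNA that silences genes around Cdkn1c, had 0.85 in males (FDR 0.122) and -1.09 at another female bin (FDR 0.112). Nap1l5, a gene of a nucleosome assembly protein family, had 0.79 in males and -0.10 in females (FDR 0.102 and 0.955). At the start that Snrpn shares with Snurf, the bins were assigned to Snurf and so fall outside the 41 symbols. They had changes of 0.97 in males (chr7:60004148-60004648, FDR 0.0619) and 0.88 in females (FDR 0.138).

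**Figure D2:**
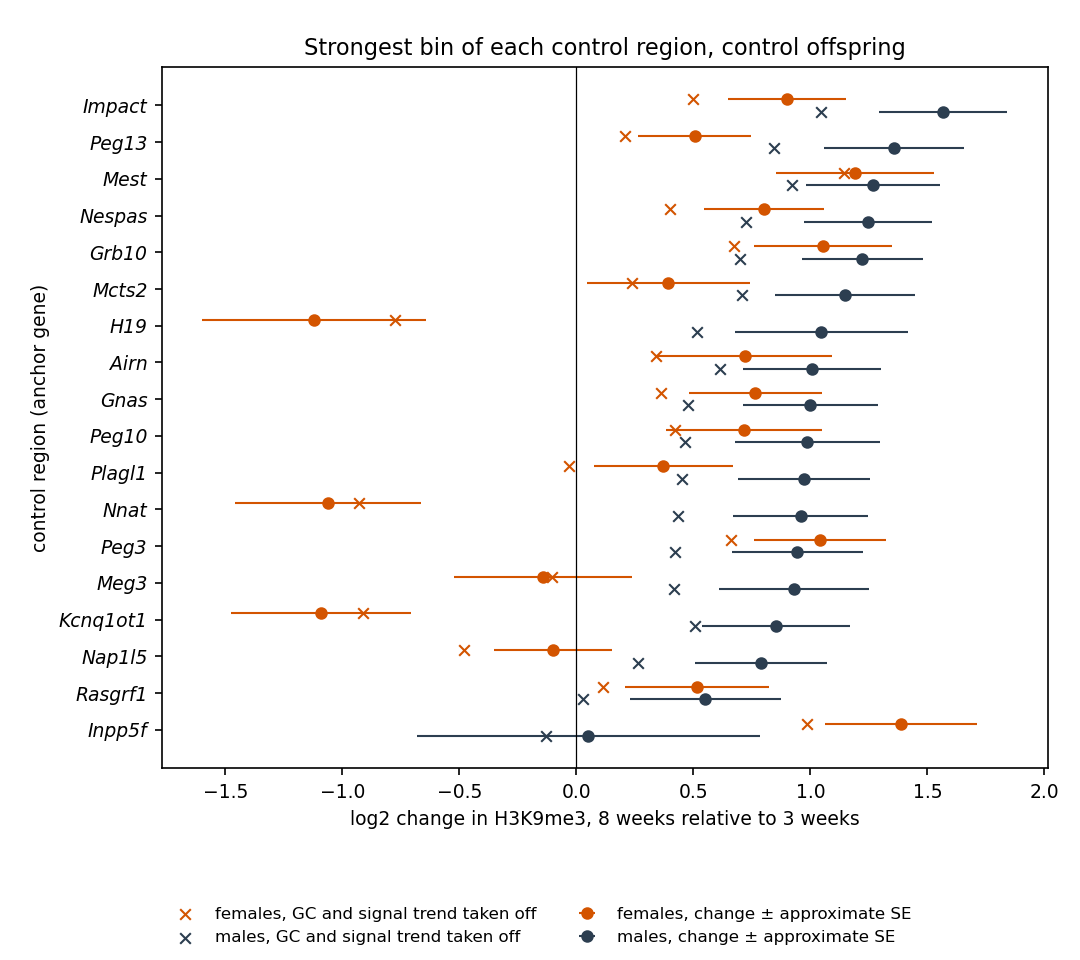
Change in H3K9me3 from 3 to 8 weeks (log2, horizontal) at the strongest bin of each of 18 control regions in control females and males; circles are the deposited changes with approximate standard errors and crosses are the changes after the trend of all bins with GC content and signal was taken off. Male circles all lie above 0, between 0.05 at Inpp5f and 1.57 at Impact, and 5 female circles are below 0, those of H19, Kcnq1ot1, Meg3 and Nnat, which lie at other positions than the male ones, and that of Nap1l5, which overlaps the male bin.

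Outside these windows the highest signal of any member bin in males was at Igf2. The promoter bin at chr7:142669802-142670302 had an average of 25.4 CPM, the 99.99th percentile, and rose by 1.51 (SE 0.24, FDR 1.05e-06), and a bin at a second start rose by 1.20 (FDR 0.0308). In females an Igf2 bin that overlaps it in part rose by 1.11 (SE 0.27, FDR 0.00545) at 13.3 CPM. Cdkn1c, which codes for a cell cycle inhibitor, rose at its start by 1.32 in males (FDR 0.00053) and by 0.92 in females (FDR 0.0159), and the female bin had the highest signal of any member bin there, 17.2 CPM. In males another Cdkn1c bin, 2430 bases from the start, fell by 1.61 (FDR 0.0473) at 3.02 CPM, the 1.11th percentile.

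In the Dlk1-Dio3 domain, overlapping bins assigned to Dio3, the gene of the enzyme that inactivates thyroid hormone, rose by 1.08 in males (chr12:110319345-110319845, FDR 0.00987) and by 1.03 in females (FDR 0.0159). The male bin lies 40085 bases from the Dio3 start, in an exon of another transcript. Distal bins assigned to Mirg, a noncoding RNA that hosts microRNAs, rose by 1.33 and 1.23 in males and by 1.22 in females. The start of Meg3 itself rose by 1.03 in males (FDR 0.0484). Bins of Dlk1 (24 in females and 26 in males), Rtl1 and Rian were measured and none was called.

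Most falls called in males were in bins of lower signal than the rises. The largest was at a distal bin upstream of Grb10 (chr11:12202715-12203215, the 18.3rd percentile), which fell by 2.63 (SE 0.48, FDR 3.66e-05). Blcap, which contains Nnat in an intron, fell by 1.94 at a distal bin (FDR 0.00388), and Trappc9, a trafficking gene that contains Peg13, fell by 1.79 at its promoter (FDR 0.00918). Kcnq1ot1 fell by 1.65 at a bin 30750 bases downstream of its start (FDR 0.0322) and by 1.44 at a bin before its start, in intron 11 of 15 of Kcnq1, on the other strand (FDR 0.043). In females a different Kcnq1ot1 bin, 42844 bases into the transcript, rose by 1.03 (FDR 0.0276). Distal bins of Phlda2, Peg12 and Snrpn fell by 1.43, 1.16 and 1.29. The signal of these bins was at the 53.8th, 92.9th and 56.5th percentile, and that of the Impact bin that fell was at the 73.5th, above some of the bins that rose. A further distal Grb10 bin and a further distal Snrpn bin rose in males by 1.07 and 1.22, and a distal Snrpn bin rose in females by 0.97. Genes with bins but no call in either sex were Ascl2, Copg2, H13, H19, Igf2r, Magel2, Mkrn3, Nap1l5, Ndn, Rasgrf1, Sgce, Ube3a, Usp29 and Zim1, beside Dlk1, Rian and Rtl1, and Nespas had no bin.

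Bins called in the 2 directions differed in sequence and signal as well. The 23 male bins called higher had a median GC content of 58.5%, 6.19 CpG per 100 bases and a median signal at the 99.1th percentile, and 11 of them held TGCCGC. The 10 male bins called lower had 52.8% GC, 0.898 CpG per 100 bases and a median signal at the 26.4th percentile, and 0 of them held the motif. The 11 female bins called higher had 58.1% GC, 5.39 CpG per 100 bases and a median signal at the 98th percentile, and 5 held the motif. The motif, counted on both strands, was present in 13 of 18 strongest control-region bins in males and 9 of 18 in females, beside 12.0% and 13.3% of all bins. Among all bins in the top of 10 equal classes of both GC and signal the share was 28.7% in males and 33.5% in females, and among the promoter bins of that class it was 39.1% and 43.8%.

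Signal and GC content moved with the change across the whole table, and these values stand beside every rise given above. In the top of 10 equal classes of both GC and signal, 13.5% of all male bins and 13.9% of all female bins were called higher and 0 lower, with median changes of 0.52 and 0.40. Member bins in that class numbered 19 in males, of which 9 were called higher, and 9 in females, of which 3 were called higher, with medians of 0.92 and 0.77. After the median change of bins with the same GC and signal was taken off, 12 of 373 male bins passed, beside 1.69% of all bins, and 1 of 304 female bins passed, beside 0.987%. The median of the strongest control-region bins went from 0.99 to 0.49 in males, with 17 of 18 above 0, and from 0.62 to 0.29 in females, with 12 of 18 above 0. In males Impact was the 1 region whose strongest bin was called after this step (adjusted p = 0.0205). A weaker bin in the Grb10 window, chr11:11970327-11970523, also passed (0.0416), though its deposited FDR was 0.118, and the Igf2 promoter (0.00147), the Peg3 3′ UTR bin (0.00897) and the distal Grb10 fall (0.00352) also passed. These adjusted p-values come from an approximate normal test with Benjamini-Hochberg adjustment over all bins. The male Mirg bins (0.0107 and 0.0349), the Peg10 5′ UTR bin (0.0314) and the Peg12 fall (0.00176) passed as well. Of the 12 male bins 9 were higher and 3 lower. In females the Mirg bin was the 1 that passed (0.0183). The part that GC content, signal or library composition had in the age change was not tested.

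**Figure D3:**
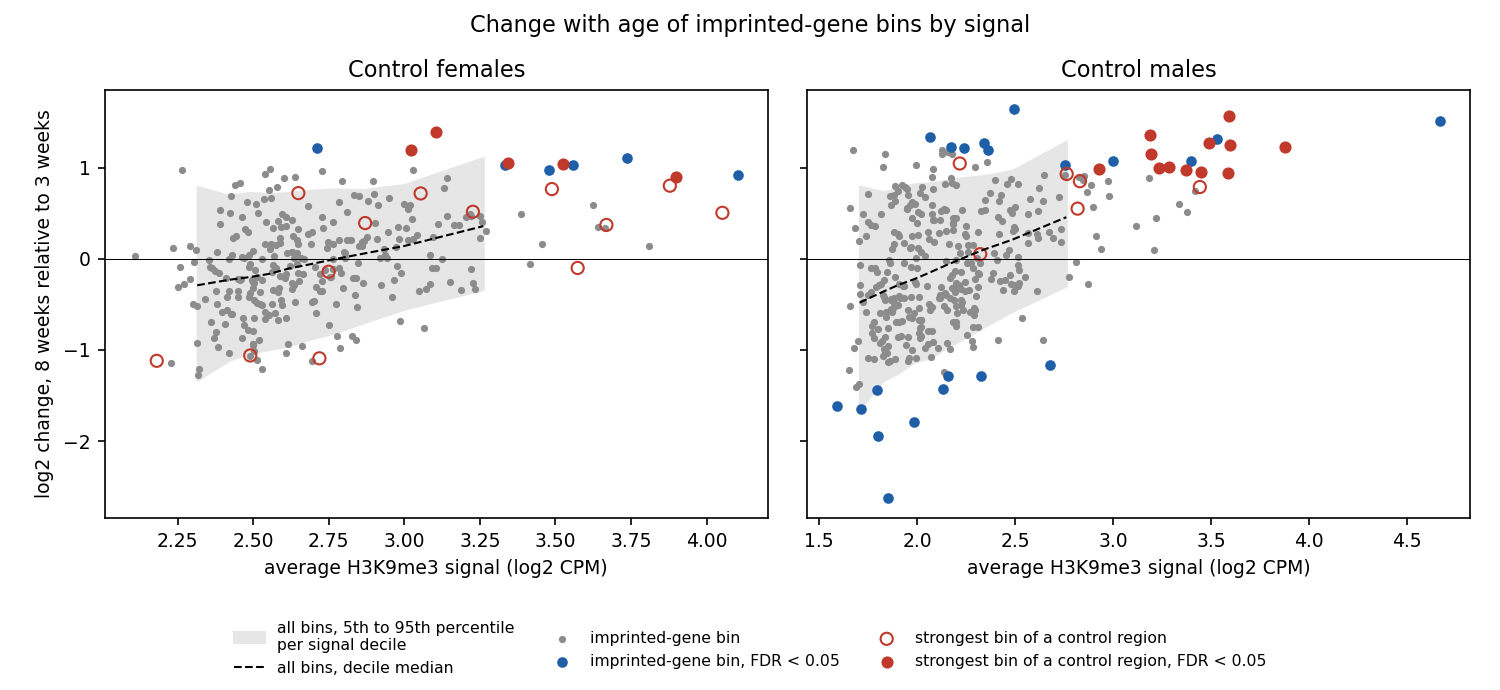
Change from 3 to 8 weeks (log2) against average H3K9me3 signal (log2 CPM) for every bin of the imprinted genes in control females (left) and control males (right), with strongest control-region bins in red and FDR under 0.05 filled; the dashed line and band give the median and the 5th to 95th percentile of all bins in 10 classes of signal. The median of all bins climbs from -0.48 to 0.46 in males and from -0.29 to 0.36 in females, and most control-region bins sit at the right, above that line.

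The next comparison asked whether the age change differed between the sexes, at bins of females and males that overlap by at least 50% of each. Of 126 such member pairs, 85 changed in the same direction (67.5%), beside 64.7% of all 54633 pairs. No difference among the 113 testable member pairs passed 0.05 after Benjamini-Hochberg adjustment in an approximate normal test, and 8 had an unadjusted p under 0.05, which is 7.08%, beside 6.67% of all pairs. The smallest p was at Ascl2, a trophoblast transcription factor gene, with changes of 0.66 in males and -0.76 in females (difference 1.42, 95% interval 0.50 to 2.35, adjusted p = 0.414). At Kcnq1ot1 the female bin called higher overlapped a male bin with a change of -0.29 (difference -1.32, interval -2.23 to -0.40, adjusted p = 0.480). The strongest bins overlapped at 6 control regions. The male change was the larger in all 6, by a median of 0.36, beside a median difference of 0.08 over all pairs, and at Nap1l5 the difference was 0.89 (interval 0.15 to 1.63, adjusted p = 0.614). The greater number of calls in males is thus not shown to be a difference between the sexes.

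The MO comparisons asked whether the mark at imprinted genes differed between offspring of MO and control dams of 1 sex and age. No member bin passed an FDR of 0.05 in any of the 4 comparisons, and no bin of the tables did. At an unadjusted p under 0.001, 1 of 354 bins passed in females at 3 weeks (beside 0.211% of all bins), 1 of 405 in males at 3 weeks (beside 0.278%), 0 of 289 in females at 8 weeks (beside 0.162%) and 0 of 254 in males at 8 weeks (beside 0.114%). At an unadjusted p under 0.05 in edgeR's exact test, the counts were 23 (beside 7.72% of all bins, against 6.50% of the member bins), 42 (8.83% against 10.4%), 20 (7% against 6.92%) and 19 (6.5% against 7.48%). Over all classes the member shares were near those of all bins. In promoters alone, 11 of 67 member bins in females at 3 weeks had a p under 0.05, which is 16.4%, beside 10.0% of all promoter bins, and their median change was 0.28, beside -0.09. The promoter shares were 12.3% of member bins beside 10.6% in males at 3 weeks, 11.1% beside 9.84% in females at 8 weeks and 13.5% beside 8.35% in males at 8 weeks. The promoter medians were -0.02 beside -0.05, -0.22 beside -0.11 and 0.03 beside -0.04 in the same order. The share with p under 0.05 also went with peak length. Among all bins in peaks of 8 or more bins it was 16.9% and 24.6% in females and males at 3 weeks. At 8 weeks it was 14.2% and 13.5%. In peaks of 2 to 7 bins it was 7.01% and 8.13% at 3 weeks, and 6.36% and 5.75% at 8 weeks. The part of peak length in the promoter shares was not tested.

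The female bin past 0.001 at 3 weeks was 2574 bases from the Ascl2 start (chr7:142966190-142966690), with a change of 1.36 (SE 0.41, edgeR exact test p = 0.000884, FDR 0.684). The male bin was in intron 11 of 11 of H13, which codes for a signal peptide peptidase (chr2:152701800-152702235), with a change of 1.30 (SE 0.36, exact test p = 0.00031, FDR 0.514). At 8 weeks the smallest p in females was at a distal Mirg bin with a change of 1.38 (exact test p = 0.00122), and in males at the promoter of Mkrn3, a gene of a ubiquitin ligase, with a change of -1.18 (p = 0.00332).

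The strongest control-region bins had median MO changes at 3 weeks of 0.39 (females) and 0.27 (males). Some of these bins lay at other starts than the age bins. Examples are Airn in females (chr17:12819488-12819988), and Grb10 and Mest in males (chr11:11948397-11948897 and chr6:30720004-30720380). The 8-week medians were -0.12 (females) and -0.17 (males). They were above 0 in 13 and 12 of 18 regions at 3 weeks, and in 8 and 7 of 18 at 8 weeks. At an unadjusted p under 0.05 there were 5 and 3 of 18 at 3 weeks and 3 and 4 of 18 at 8 weeks, beside the shares of all bins given above. Among all promoter bins the shares were 10.0% and 10.6% at 3 weeks and 9.84% and 8.35% at 8 weeks. Shares by peak length are given above, and the strongest bins lay in peaks with a median of 6 to 7 bins. Inpp5f had a change of 1.01 in females at 3 weeks (SE 0.35, exact test p = 0.00351, FDR 0.789), at the bin that rose with age in control females. In males at 3 weeks the Peg10 window had a change of 1.22 at a bin assigned to Sgce (SE 0.40, exact test p = 0.00256, FDR 0.699). Its signal was low, at the 12.1th percentile. Peg13 had a change of 0.80 in males at 3 weeks (SE 0.28, exact test p = 0.00414) and of -0.62 in females (p = 0.0486). H19 had a change of 1.08 in males at 8 weeks (chr7:142579978-142580478, SE 0.38, exact test p = 0.0044, FDR 1). Impact had a change of 0.58 in males at 3 weeks (exact test p = 0.0358) and of -0.62 at another bin at 8 weeks (p = 0.0422). The age and MO comparisons of a sex share the control libraries of an age, so a high or low control group enters both, and no relation between them was computed.

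**Figure D4:**
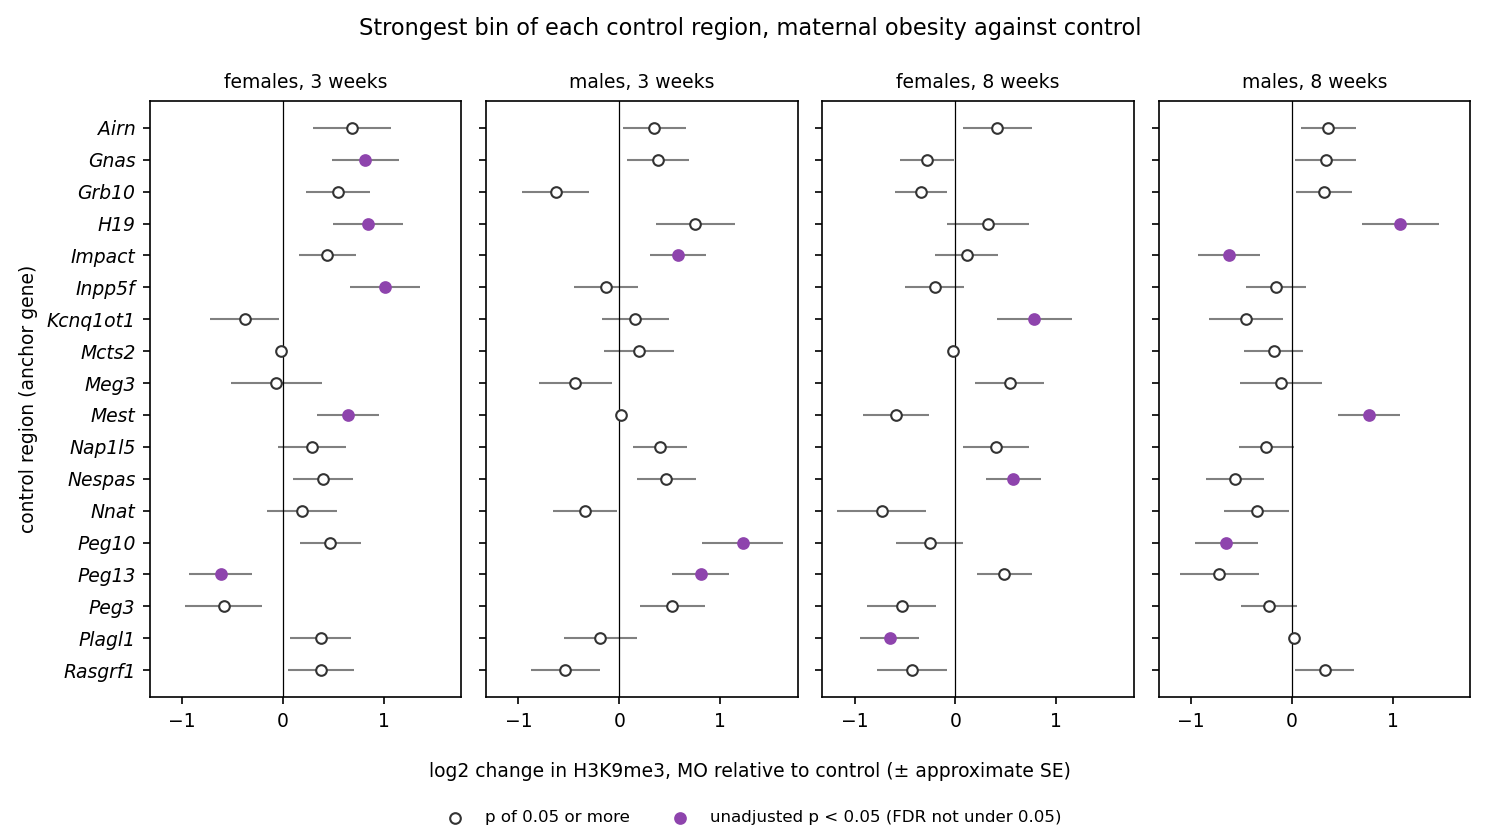
MO change (log2, relative to control offspring) at the strongest bin of each control region in the 4 comparisons, with approximate standard errors where p is under 1; filled points have an unadjusted p under 0.05 and no FDR is under 0.05. Points lie on either side of 0 in every comparison. They run from -0.73 at Nnat in females at 8 weeks to 1.22 in males at 3 weeks in the Peg10 window, at a bin assigned to Sgce. A strongest bin can lie at another annotated start of its gene.

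Genes that maintain imprints and other imprinted genes were counted as well. Their 25 genes held 133 bins in the male age comparison, with 4 called higher and 6 lower, and 110 in the female one, with 1 called higher and 1 lower. These are 7.52% and 1.82% called, beside 4.41% and 2.72% of all bins. Zfp445, which codes for a partner of ZFP57 in imprint maintenance, fell at its promoter in males by 2.99 (FDR 0.00014) and 2.05 (FDR 0.00258). A bin assigned to Dnmt1, the maintenance DNA methyltransferase gene, fell by 1.40 in males (chr9:20963858-20964358, FDR 0.0422). It lies upstream of the Dnmt1 start, in a 3′ UTR of another gene. Suv39h1, an H3K9 methyltransferase gene, rose by 1.18 at its promoter in females (FDR 0.00174). It lies on the X chromosome, where 14.2% of all female bins were called. Among 47 other imprinted genes, 10 of 363 male bins were called higher and 3 lower, and 2 of 315 female bins were called higher and 6 lower. These are 3.58% and 2.54% called, near the shares of all bins. At an unadjusted p under 0.001 in the MO comparisons at 3 weeks, 2 of 156 male bins of the imprint maintenance genes passed (1.28%, beside 0.278% of all bins), and 1 of them was the same Dnmt1 bin, with a change of -1.44. Of the other imprinted genes 2 of 362 female bins passed (0.552%, beside 0.211%), 1 higher at Gab1 and 1 lower at Slc38a4. In the remaining MO comparisons 0 bins of either list passed. Klf14, a transcription factor gene near Mest, rose by 2.21 in males (FDR 2.3e-14) and 1.37 in females (FDR 6.65e-08) at its promoter. Liver-expressed genes such as Alb and Ttr had few bins, with 51 in 15 of 20 genes in males, of which 1 was called higher and 1 lower, and 39 in 13 of 20 in females, of which 0 were called.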

How the data were processed

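H3K9me3 ChIP-seq of liver was read from the tables of 6 comparisons that the authors deposited. Per the study's methods, reads were aligned to mm10/GRCm38 with BWA, broad peaks were called with MACS2, peak sets seen in at least 3 replicates were merged within each sex and divided into bins of 500 bases, and the authors ran edgeR's exact test on reads per bin. For each bin the authors deposited a log2 fold change, an average signal as log2 CPM, a p-value and an FDR. These columns are the authors' own comparisons and were used because the tables hold no values per library. Each table lists 1 bin per peak, and how that bin was retained is not given in the sources used here. The share of bins with p under 0.05 was higher in peaks of 8 or more bins (41.7% in male age) than in single-bin peaks (17.4%).

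The sign of the age comparisons was turned so that positive is higher at 8 weeks. Thresholds were an FDR of 0.05 for age and a p of 0.001 for MO, after the study's methods. Members were bins with a listed symbol; every member was accounted for, and bins were named where called, in a control-region window (5 kb around a GENCODE M21 start, 0 to 5 kb upstream of H19, 10 to 20 kb of Meg3, 25 to 35 kb of Rasgrf1), strongest, or smallest in p. Windows, lists and members were chosen with earlier results of these data known. Standard errors were approximated from change and p. The trend was the median change within each of 10 GC classes by 10 signal classes. Trend removal and the test between the sexes were run on simulated bins whose noise was drawn from the same approximate SE. For the sexes the simulated trend was also taken off, unlike in the reported test. That run checks the calculation only and cannot show whether the SE holds. Computation used scipy 1.17.1, pandas 2.3.3 and numpy 2.4.6 under Python 3.11.15. Sequences were read from the RefSeq copy of GRCm38. Input libraries were not used here.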

Additional observations from a re-analysis of the deposited data

How the results depend on the processing

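No paired analysis was possible because the tables hold no values per library, and leaving out a replicate could not be run for the same reason. Counts of bins past the threshold were most affected by trend removal (11 to 1 in females, 33 to 12 in males), by an FDR of 0.01 (2 and 13) and by peaks of a single bin (1 and 3), where the male calls were 0 higher and 3 lower against 23 higher and 10 lower. They stayed within 1.5 times under an FDR of 0.1, adjustment over the listed bins, a signal above the median, members by position and promoters with gene bodies. The number of called strongest control-region bins was 5 in females and 12 in males, and 1 and 6 at an FDR of 0.01 and 0 and 1 with the trend removed. The MO counts were 7, 10, 4 and 4 at p under 0.01, in the order females and males at 3 weeks and females and males at 8 weeks, and 23, 42, 20 and 19 at p under 0.05. At 3 weeks both counts of 1 became 0 at p under 0.0001 and in peaks of a single bin, and the female one became 0 among bins with a signal above the median. The median age change of all member bins moved to 0.18 in females and 0.22 in males among bins with a signal above the median, and to 0.12 in males with 1 median per gene. The median age change in the control-region windows moved to 0.37 and 0.85 with windows of 2 kb and to 0.62 and 0.99 for strongest bins, and in males to 0.37 with the trend removed. The MO medians of the windows moved to 0.32 with windows of 2 kb and 0.39 for strongest bins in females at 3 weeks, to 0.27 for strongest bins in males at 3 weeks, to -0.0087 with the trend removed in females at 8 weeks and to 0.024 with windows of 2 kb in males at 8 weeks. Fewer bins enter the counts and medians restricted by signal, peak length or window; for the trend the cause was not tested. The alternatives for strongest bins, for the trend in the windows and for the number of called regions were chosen after seeing the data. Depth per library is unknown, so the limit it sets was not measured.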
